A study of Caenorhabditis elegans with 6 samples.

Results

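The genes described here are 9 regulators of developmental timing in Caenorhabditis elegans: the moulting clock genes nhr-23, nhr-25, lin-42 and blmp-1, and the heterochronic genes lin-14, lin-28, lin-29, lin-41 and mab-10. They were taken by name, as every probe set that the platform annotation assigns to 1 of these symbols, which gave 17 of the 22548 probe sets that are not Affymetrix controls. A lin-29 probe set carries that symbol under 2 gene records and was kept. The worms were whole animals of strain N2 (Bristol) at a stage given as larvae (L4), with 3 control arrays and 3 arrays of worms given GYY4137, a slow donor of hydrogen sulfide. The labels' protocol gives 100 uM of the compound, with 48 h spent in liquid medium before 12 h on plates, and the records of all 6 samples, controls included, carry this same text. The study's design text describes the controls only as raised under standard conditions. Whether they had a mock exposure of that length is not given in the sources used here.

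Nematode larvae shed their cuticle at the end of each larval stage, and a transcriptional oscillator drives the rounds of cuticle synthesis and shedding. NHR-23, an orphan nuclear receptor related to the ROR family, switches on moulting genes in the epidermis, and LIN-42, the worm relative of the Period protein, and BLMP-1, a Blimp-1 relative, shape the pulses of that programme. The heterochronic genes say which stage a cell belongs to. LIN-14 and LIN-28 mark early larval stages and are shut off by microRNAs, LIN-41 is shut off later by let-7, and LIN-29 with its cofactor MAB-10 then brings the epidermis to its adult state. LIN-41 has a separate role in the hermaphrodite gonad, where it accumulates in growing oocytes.

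Most of these regulators were at or near the lower end of the array's scale. The values are log2, made by the authors with GCRMA, and a probe set was tested when it lay above 4 on at least 3 of the 6 arrays. Of the 17 probe sets 5 passed, 1 each for nhr-23, lin-42, blmp-1, lin-28 and lin-41. None of the 5 had passed through 1 group alone. The other 12, which include every probe set of nhr-25, lin-14, lin-29 and mab-10, lay between 2.18 and 3.43 on all 6 arrays. No value above the floor was therefore recorded for 4 of the 9 genes, and a change in these genes was not detectable with these probe sets.

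**Figure D1:**
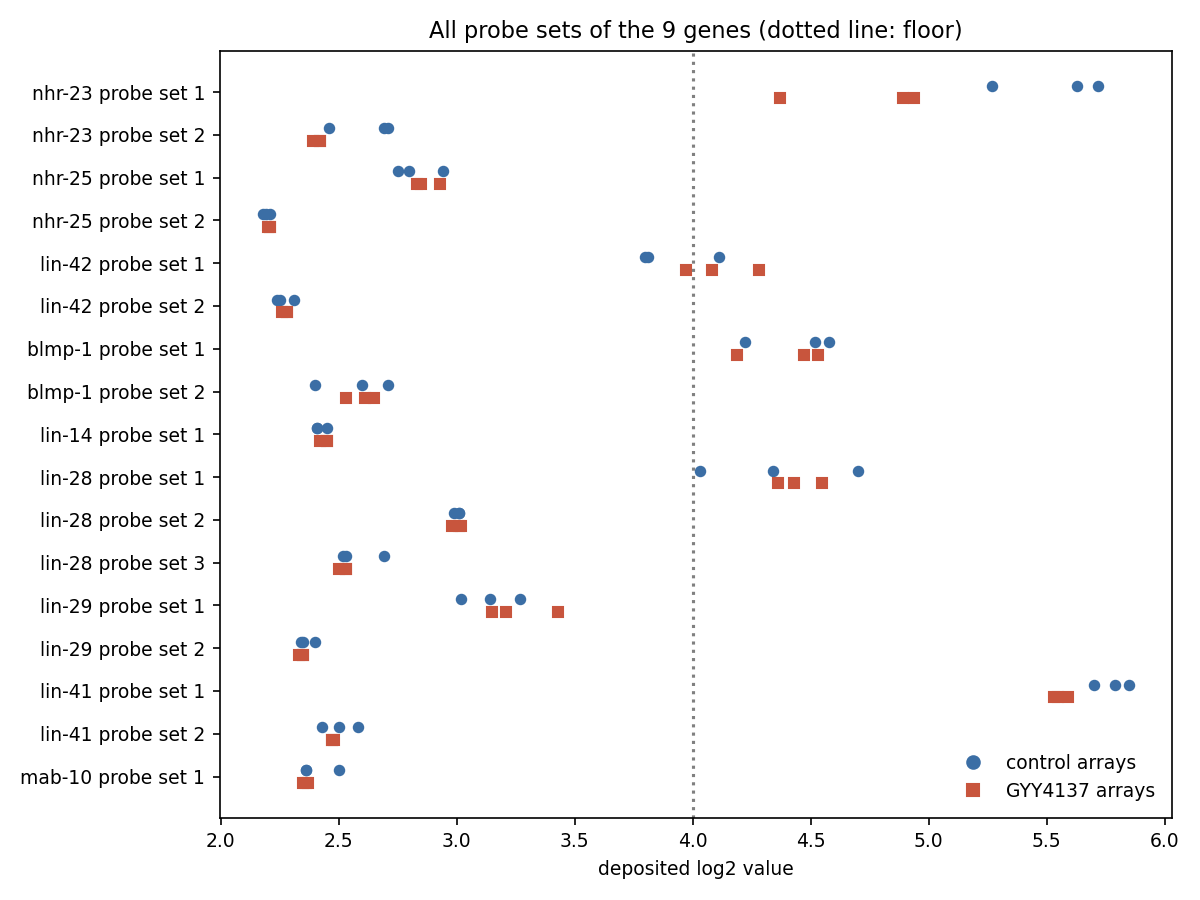
Deposited log2 values (horizontal axis) of all 17 probe sets of the 9 genes, 1 row per probe set, with control arrays as circles, GYY4137 arrays as squares and the floor of 4 as a dotted line. Only the leading probe sets of nhr-23, lin-42, blmp-1, lin-28 and lin-41 reach past the floor, and the 2 groups lie apart for nhr-23 and lin-41.

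As a check of the labels, marker genes of every tissue searched were found. All 14 oocyte and eggshell markers lay above the floor on all 6 arrays, and so did all 5 yolk protein genes on the array and all 10 general germline genes. The transcription factor genes elt-2 (intestine), hlh-1 (muscle) and pha-4 (pharynx), the neuronal gene unc-119 and the epidermal gene che-14 lay below it on all 6, while other markers of those tissues lay above. Col-19, a collagen gene that LIN-29 switches on in the adult epidermis, had a control mean of 9.75 ± 0.04 (SD, n = 3). Since yolk, eggshell and col-19 transcripts belong to adults or to the step into adulthood, the label of L4 larvae does not by itself settle the stage at harvest. GYY4137 replicate 3 stood apart, since it correlated at 0.940 to 0.965 with the other 5 arrays across tested probe sets, while those 5 correlated at 0.979 to 0.993 with each other. Differences and list medians are therefore also given without that array. The labels do not state that replicates came from separate cultures. P-values then cover the spread among these arrays alone, and that spread may be technical.

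No member passed the test. Limma called 0 of the 5 tested probe sets at adjusted p under 0.05, where 1.50% of all 8053 tested probe sets were called, 1.09% higher and 0.410% lower, and 1 of the 5 (nhr-23) had an unadjusted p under 0.05, where 17.7% of all did. All GYY4137 arrays lay below all controls for 2 of the 5, nhr-23 and lin-41, where 15.6% of all tested probe sets did so, and above all controls for 0, where 13.4% did. The groups overlapped for lin-42, blmp-1 and lin-28.

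Among the clock genes the widest gap was that of nhr-23. Its control values were 5.27, 5.72 and 5.63 on replicates 1, 2 and 3, and its GYY4137 values were 4.94, 4.89 and 4.37. Every GYY4137 array lay below every control, and GYY4137 replicate 3 was the lowest of the 6. The difference was -0.81 ± 0.19 (GYY4137 minus control, log2, standard error from limma, n = 3 per group), a level 1.75-fold higher in the controls, with a 95% interval from -1.26 to -0.36. It did not pass over all probe sets (limma adjusted p = 0.103, the 276th smallest p of 8053), and 102 of the 8053 tested probe sets, or 1.27%, lay at least as far below control. Without GYY4137 replicate 3 the difference was smaller, -0.63 ± 0.14, and passed (limma adjusted p = 0.0397), as 1.69% of tested probe sets did in that direction. With arrays weighted by their fit it was -0.56 (limma adjusted p = 0.0115), with 8.48% of tested probe sets called lower. Nhr-23 did not pass under any other setting that gave it a value. With any other array left out its limma adjusted p ran from 0.112 to 0.369, and with no filter it was 0.287.

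The other nhr-23 probe set also lay lower on every GYY4137 array. It read 2.71, 2.69 and 2.46 in the controls and 2.42, 2.39 and 2.42 after GYY4137. All these values are below the floor, so they give no firm level. Both nhr-23 probe sets are of the kind (_s_at) that can bind more than 1 transcript, so signal from related transcripts was not separated. Most markers of the epidermis, the tissue in which nhr-23 acts in moulting, lay on the other side of control. Of 7 tested 6 were above it, where 43.4% of all 6230 tested genes were, and 0 were called, where 1.17% of all were raised. Without GYY4137 replicate 3, 5 of the 7 were above. The marker elt-3, counted among the 6, differed by 0.0 after rounding. Lin-26 differed by -0.22, with every GYY4137 array below every control. The widest differences were those of wrt-2 (0.75), rol-6 (0.56) and dpy-7 (0.47). The median difference of the 7 was 0.19, and 0.20 without GYY4137 replicate 3. The mean over the 8 on the array ran from 6.05 to 6.22 in the controls and from 6.22 to 6.61 after GYY4137. Markers of several other tissues, though not of all, lay below control with nhr-23, where 56.6% of all tested genes did. Of those tested, 4 of 4 did so for body wall muscle (median -0.41, and -0.50 without GYY4137 replicate 3). For the pharynx 4 of 4 did (median -0.25, and -0.32 without it). For oocytes and eggshell 13 of 14 did (median -0.31, and -0.19 without it). For the germline 9 of 10 did (median -0.13, and -0.14 without it). For yolk 3 of 5 did (median -0.07, and 0.0 without it). Intestine markers were above control for 3 of 4 (median 0.06, and 0.01 without it). Neuron markers were above it for 3 of 5 (median 0.11, and 0.02 without GYY4137 replicate 3), and sperm markers for 10 of 11 (median 0.50). The mean over the 5 muscle markers on the array ran from 7.77 to 8.01 in the controls and from 7.50 to 7.71 after GYY4137, and that over the 5 pharynx markers from 5.35 to 5.66 and from 5.14 to 5.29. None of these markers was called, where 1.17% of all genes were raised and 0.321% lowered. The part of these markers in the nhr-23 difference was not tested. In whole worms fewer cells of a type and less RNA per cell cannot be told apart.

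**Figure D2:**
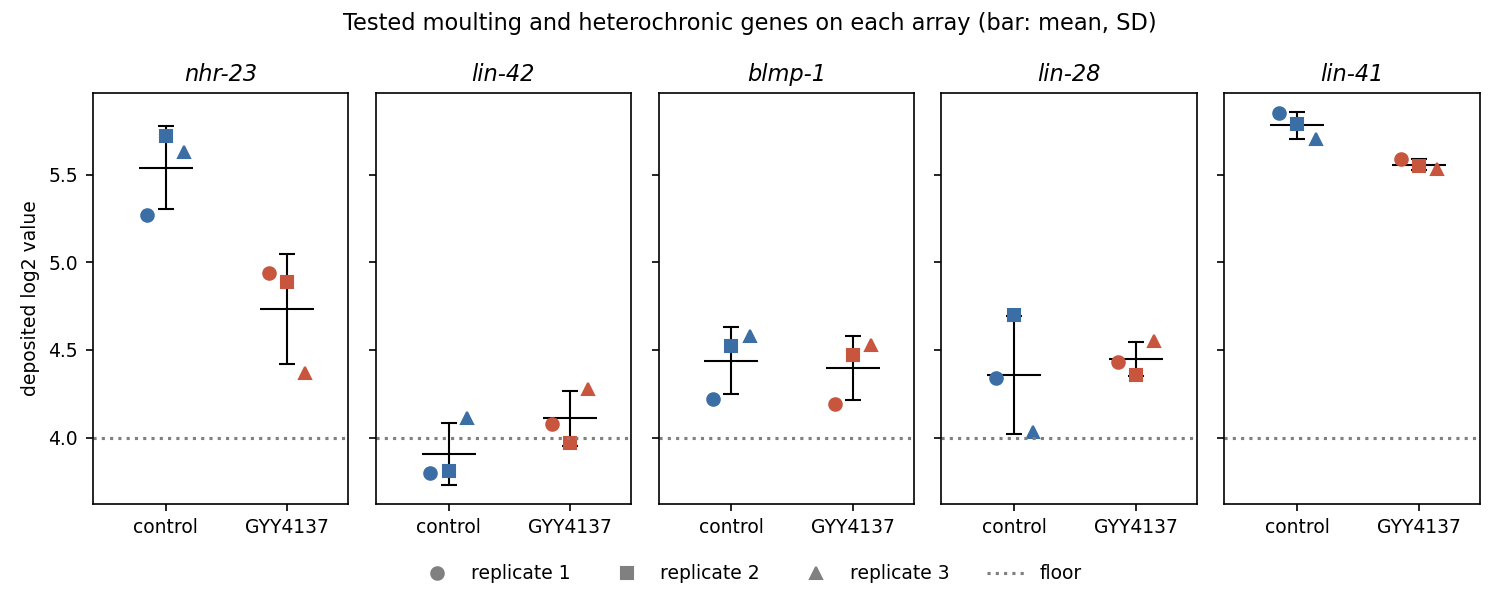
Deposited log2 values (vertical axis) of the 5 tested genes on each array, with circles, squares and triangles for replicates 1, 2 and 3, long bars for the group mean, whiskers for the SD (n = 3) and a dotted line at the floor of 4. The groups separate for nhr-23 and, by a smaller step, for lin-41, and overlap for the others.

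The genes whose 6 values were most like those of nhr-23 were ZK632.2 and wdr-48, the latter encoding a WD-repeat protein known as a partner of deubiquitinating enzymes. Likeness was the root mean square difference between the deviations from each gene's own mean, 0.09 for ZK632.2 and 0.10 for wdr-48, beside a root mean square deviation of 0.46 for nhr-23 itself. ZK632.2 read 5.64, 6.04 and 5.99 in the controls and 5.44, 5.43 and 4.69 after GYY4137. Like nhr-23, it was lowest in control replicate 1 among the controls and lowest of all on GYY4137 replicate 3. Its difference was -0.71 ± 0.23 (limma adjusted p = 0.194) and that of wdr-48 was -0.66 ± 0.18 (limma adjusted p = 0.143). These were -0.46 and -0.47 without GYY4137 replicate 3. By this measure 60 of 6230 genes, or 0.963%, lay within 0.2 of nhr-23.

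Lin-42, the Period relative that paces the moults, read 3.80, 3.81 and 4.11 in the controls and 4.08, 3.97 and 4.28 after GYY4137. These values straddle the floor and the groups overlapped. The difference was 0.20 ± 0.14 (95% interval -0.12 to 0.53, limma adjusted p = 0.440), and 0.12 without GYY4137 replicate 3. Its second probe set stayed between 2.24 and 2.31.

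Blmp-1, whose product opens chromatin ahead of the oscillating genes, read 4.22, 4.52 and 4.58 in the controls and 4.19, 4.47 and 4.53 after GYY4137. The replicates of the same number were closer to each other than the replicates of a group. The difference was -0.04 ± 0.15 (95% interval -0.39 to 0.31, limma adjusted p = 0.900), or -0.11 without GYY4137 replicate 3, and its sign turned under 4 of the alternative settings. On the fold scale that interval runs from 1.31-fold lower to 1.24-fold higher after GYY4137. Nhr-25, the Ftz-F1 relative that acts with NHR-23 in moulting and in the epidermis, stayed between 2.75 and 2.94 on its higher probe set and between 2.18 and 2.21 on the other, with no group apart from the other.

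Of the early heterochronic genes only lin-28 could be tested. Its product, an RNA-binding protein, blocks the maturation of let-7. Its controls read 4.34, 4.70 and 4.03, a wider spread than that of the GYY4137 arrays at 4.43, 4.36 and 4.55. The difference of 0.09 ± 0.18 (95% interval -0.32 to 0.50, limma adjusted p = 0.795) lay within the controls' spread. It was -0.07 without control replicate 3 and 0.04 without GYY4137 replicate 3. The other lin-28 probe sets, read below the floor, stayed between 2.50 and 3.02. Lin-14, a nuclear protein gene and the classic target of the lin-4 microRNA, read 2.41 to 2.45 on all 6 arrays.

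**Figure D3:**
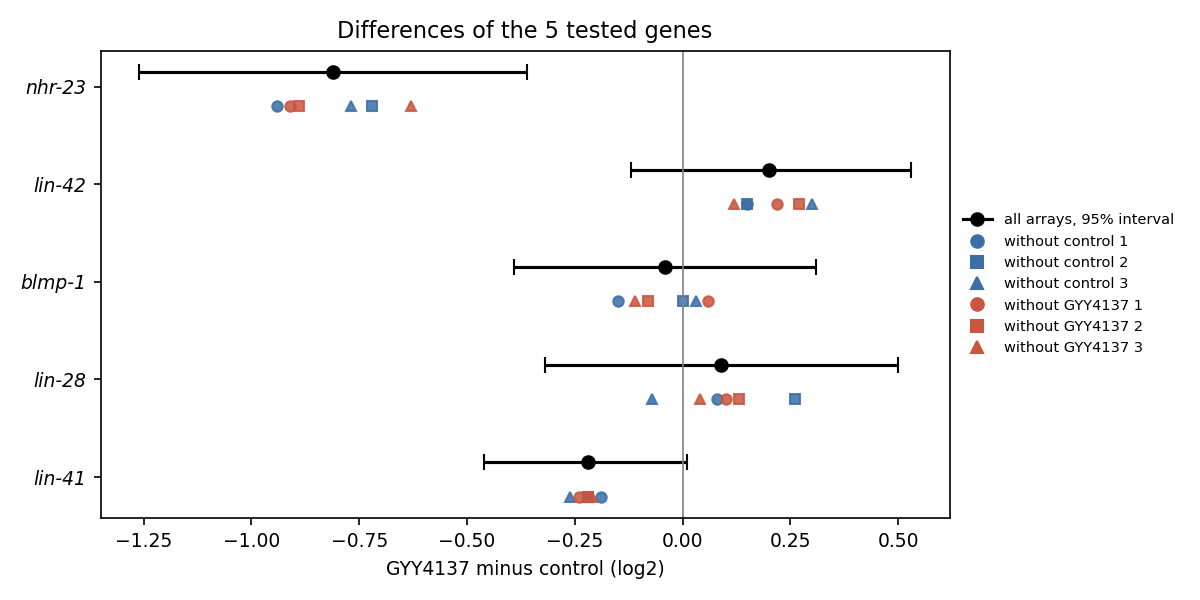
Difference GYY4137 minus control (horizontal axis, log2) of the 5 tested genes, with black points and bars for all 6 arrays and the 95% interval, and coloured symbols for the value when 1 array is left out. For nhr-23 the values with 1 array left out run from -0.94 to -0.63 and for lin-41 from -0.26 to -0.19, while those of blmp-1 and lin-28 fall on both sides of 0.

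Lin-41, a TRIM-NHL RNA-binding protein and a target of let-7, was the other member without overlap. It read 5.85, 5.79 and 5.70 in the controls and 5.59, 5.55 and 5.53 after GYY4137. The gap was small, and so was the spread within each group. The difference was -0.22 ± 0.10 (1.17-fold higher in the controls, 95% interval -0.46 to 0.01) and did not pass (limma adjusted p = 0.305). It stayed between -0.26 and -0.19 whichever array was left out, with -0.21 without GYY4137 replicate 3, and 2173 of the 8053 tested probe sets lay at least as far below control. With arrays weighted by their fit it was -0.25 and passed (limma adjusted p = 0.0477), as 8.48% of tested probe sets did in that direction.

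Most oocyte transcripts also lay below control. Of the 14 oocyte and eggshell markers 13 were below control, with 0 called, against 0.321% lowered over all genes. The mean over these markers ran from 8.94 to 9.02 in the controls and from 8.55 to 8.78 after GYY4137. Their median difference was -0.31, and -0.19 without GYY4137 replicate 3. Over all 6230 tested genes 56.6% were below control. The part of the oocyte transcripts in the lin-41 difference was not tested. The second lin-41 probe set, at 2.43 to 2.58, lay below the floor and its groups overlapped. Like those of nhr-23, both lin-41 probe sets are of the _s_at kind, so signal from related transcripts was not separated.

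The late genes gave no usable signal. Lin-29, the zinc finger gene at the end of the pathway, read 3.27, 3.14 and 3.02 in the controls and 3.43, 3.21 and 3.15 after GYY4137 on its higher probe set, all below the floor and overlapping. Mab-10, a NAB-type cofactor of LIN-29, read 2.36, 2.36 and 2.50 in the controls and 2.35 to 2.37 after GYY4137. Adult cuticle genes downstream of LIN-29 lay well above the floor all the same. Of 6 adult cuticle genes tested, 0 were raised and 0 lowered, against 1.17% raised and 0.321% lowered over all genes, and 5 were above control (median 0.24, against -0.04 over all genes). The list's median was 0.12 without GYY4137 replicate 3. Col-19 differed by -0.10 ± 0.10 (limma adjusted p = 0.590), the cuticle strut collagen gene bli-2 by 0.54 ± 0.17 (limma adjusted p = 0.194), col-63 by 0.63 ± 0.21 (limma adjusted p = 0.205) and col-38 by 0.25 ± 0.15 (limma adjusted p = 0.390). These 4 differed by -0.11, 0.41, 0.57 and 0.15 without GYY4137 replicate 3. Col-19 was added to these after its values were seen.

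Most effector genes of the moult stood on the other side of control from nhr-23. Of 21 listed genes, among them proteases, matrix proteins, cuticle oxidases and hedgehog-related proteins, all were on the array and 14 were tested. Among the 14, 0 were raised and 0 lowered, against 1.17% and 0.321% over all genes. In these 14 the median difference was 0.56 and 13 lay above control, where 43.4% of all genes did. All GYY4137 arrays lay above all controls for 8 of them, where 13.7% of all genes did. Mlt-9, counted in both the 13 and the 8, passed the filter through the GYY4137 group alone. Over all 21, with no filter, 18 were above control and the median was 0.46, against 0.01 over all probe sets. Sperm markers lay above control too, with 10 of 11 tested (median 0.50, and 0.37 without GYY4137 replicate 3) and 0 called, against 1.17% raised over all genes. The mean over the sperm list ran from 7.15 to 7.18 in the controls and from 7.46 to 7.89 after GYY4137. Most probe sets of the sperm list are of a kind (_x_at) that can bind transcripts of related genes. They are therefore not separate measurements. The sperm marker below control was spe-11, at -0.23. The part of other tissues in the effector differences was not tested. Nor was a difference in stage between the groups, for these or the other genes described.

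Mlt-9, needed for moulting, read 3.40, 3.66 and 3.60 in the controls and 4.28, 4.38 and 5.16 after GYY4137. The controls were under the floor, so the difference of 1.05 ± 0.23 (limma adjusted p = 0.0841) has an uncertain size. Mlt-10, a gene widely used as a reporter of each moult, read 3.62, 3.53 and 4.03 in the controls and 4.14, 4.36 and 4.88 after GYY4137, a difference of 0.73 ± 0.22 (limma adjusted p = 0.173). The hedgehog-related gene wrt-10 differed by 0.56 ± 0.15 (limma adjusted p = 0.142). Without GYY4137 replicate 3 mlt-10 differed by 0.52 and wrt-10 by 0.51. For mlt-9 and mlt-10 the highest array was GYY4137 replicate 3.

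The exception among the 14 was mlt-7, a peroxidase gene for cuticle cross-linking, chosen after its values were seen. It read 5.31, 5.38 and 5.27 in the controls and 4.74, 4.74 and 5.23 after GYY4137, where replicate 3 lay near the controls (-0.42 ± 0.15, limma adjusted p = 0.235). Without GYY4137 replicate 3 the list's median was 0.35. Mlt-9 was then raised (0.78, limma adjusted p = 0.00787) and mlt-7 lowered (-0.58, limma adjusted p = 0.0153). These were the 2 genes called in any of the lists, where 3.18% of all genes were raised and 1.64% lowered. Since mlt-9 entered the test through the GYY4137 group alone, the filter favoured its call. With arrays weighted by their fit 9 of the 14 were raised and 1 lowered, beside 9.02% and 8.12% of all genes.

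**Figure D4:**
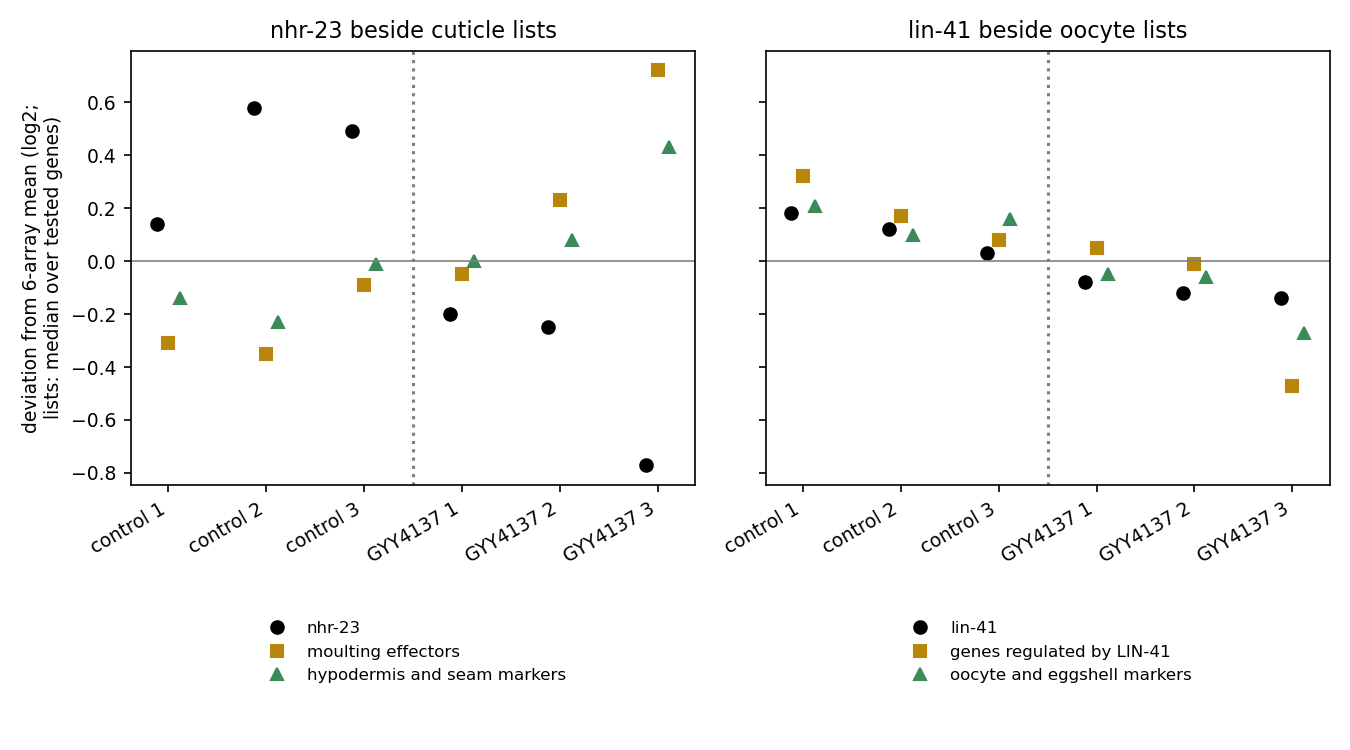
Deviation from the mean of the 6 arrays (vertical axis, log2) on each array, for nhr-23 with the moulting effectors and the epidermal markers (left) and for lin-41 with its regulated genes and the oocyte markers (right); lists are medians over tested genes, and the dotted line divides controls from GYY4137. On GYY4137 replicate 3 nhr-23 is at -0.77 and the moulting effectors at 0.72, while lin-41 lies at -0.14 and the oocyte markers at -0.27.

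On single arrays the moulting effectors and nhr-23 lay on opposite sides of their means on 5 of the 6 arrays. The exception was GYY4137 replicate 1, with nhr-23 at -0.20 and the effectors at -0.05. On control replicate 3 the effectors were at -0.09, also near their mean. Since each mean is over all 6 arrays, this count largely restates the group differences given above and is not separate evidence. The effector and epidermal lists share dpy-7 and wrt-2, so they are not separate measurements.

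Other regulators of the moult did not pass. Of 20 listed genes 8 were tested, with 0 called, where 1.17% of all genes were raised and 0.321% lowered. The list's median was 0.10, or 0.11 without GYY4137 replicate 3. The clock transcription factor gene grh-1 lay below the floor on every array, while myrf-1, for a membrane-bound transcription factor needed for moulting, differed by 0.12 ± 0.11 (limma adjusted p = 0.559), and by 0.13 without GYY4137 replicate 3. Both were added after their values were seen. Acn-1, an ACE-like gene needed for the moult, had the smallest p of the list. It read 5.41, 5.60 and 5.52 in the controls and 5.73, 6.30 and 6.90 after GYY4137, with no overlap (0.80 ± 0.27, limma adjusted p = 0.207), and without GYY4137 replicate 3 the difference was 0.51. The kinase gene nekl-3, which acts in endocytosis during the moult, differed by 0.45 ± 0.18 (limma adjusted p = 0.266), and let-767, for a steroid or fatty acid dehydrogenase, by -0.20 ± 0.11 (limma adjusted p = 0.372). Without GYY4137 replicate 3 these were 0.28 and -0.18.

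Of 25 other heterochronic genes 20 were on the array and 14 were tested. Among the 14, 0 were called, where 1.17% of all genes were raised and 0.321% lowered. Their median was -0.06, or -0.04 without GYY4137 replicate 3. Ain-1, a GW182-type protein of the microRNA silencing complex, differed by 0.25 ± 0.12 (limma adjusted p = 0.334). Pup-2, for a uridylyltransferase that works with LIN-28 on let-7, differed by -0.20 ± 0.11 (limma adjusted p = 0.370), and kin-20, the casein kinase that pairs with LIN-42, by -0.21 ± 0.12 (limma adjusted p = 0.373). With GYY4137 replicate 3 left out these differences were 0.24, -0.23 and -0.28. Kin-20 and the untested nhr-85 are also on the list of other moulting regulators, so kin-20 counts among the tested genes of both lists. All GYY4137 arrays lay below all controls for 3 of the 14, pup-2, kin-20 and pash-1, where 14.5% of all genes did so. Hbl-1, a Hunchback relative that keeps early larval fates, was named after its values were seen. It read 3.80, 3.89 and 3.38 in the controls and 3.31, 3.28 and 3.29 after GYY4137, with no overlap but all below the floor.

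The microRNA processing genes were named after their values were seen, because 1 array set their differences. Dcr-1, the Dicer gene, read 5.65, 5.62 and 5.35 in the controls and 5.45, 5.32 and 3.60 after GYY4137. Drsh-1, the Drosha gene, read 5.28, 5.47 and 5.19 and then 5.29, 5.35 and 3.90, and its partner pash-1 read 5.22, 5.19 and 5.06 and then 5.05, 5.05 and 4.20. All 3 were lowest on GYY4137 replicate 3, with the other arrays close together. Their differences were -0.75, -0.46 and -0.39 with all arrays and -0.15, 0.01 and -0.11 without that array.

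Of 7 genes listed as regulated by LIN-41 5 were tested, and 0 were called, against 1.17% raised and 0.321% lowered over all genes. These 5 lay below control (median -0.51), where 56.6% of all genes did. Without GYY4137 replicate 3 their median was -0.18. Over all 7, with no filter, 5 were below and 2 above control, and the median was also -0.18. The maternal RNA-binding gene spn-4 read 9.21, 9.07 and 9.17 in the controls and 8.83, 8.66 and 8.43 after GYY4137, a difference of -0.51 ± 0.13 (limma adjusted p = 0.126), and -0.41 without GYY4137 replicate 3. Every GYY4137 array lay below every control. The replication origin gene orc-1 differed by -0.69 ± 0.30 (limma adjusted p = 0.293), and by -0.31 without GYY4137 replicate 3. Cdc-25.3, a cell-cycle phosphatase gene, differed by -0.56 ± 0.30 (limma adjusted p = 0.363), and by -0.18 without that array. Spn-4 and rme-2, the yolk receptor gene, are also among the oocyte markers. The arrays read RNA alone, so any control of these genes by LIN-41 at the protein level was not measured.

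Seam cells are the epidermal stem cells whose divisions the heterochronic genes time. Of 11 seam cell genes on the array 2 passed the filter, egl-18 (-0.08 ± 0.13, limma adjusted p = 0.731, and -0.07 without GYY4137 replicate 3), for a GATA factor, and the Wnt pathway gene apr-1 (-0.42 ± 0.26, limma adjusted p = 0.393, and -0.11 without that array). The median of the 2 was -0.25, and -0.09 without it.

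**Figure D5:**
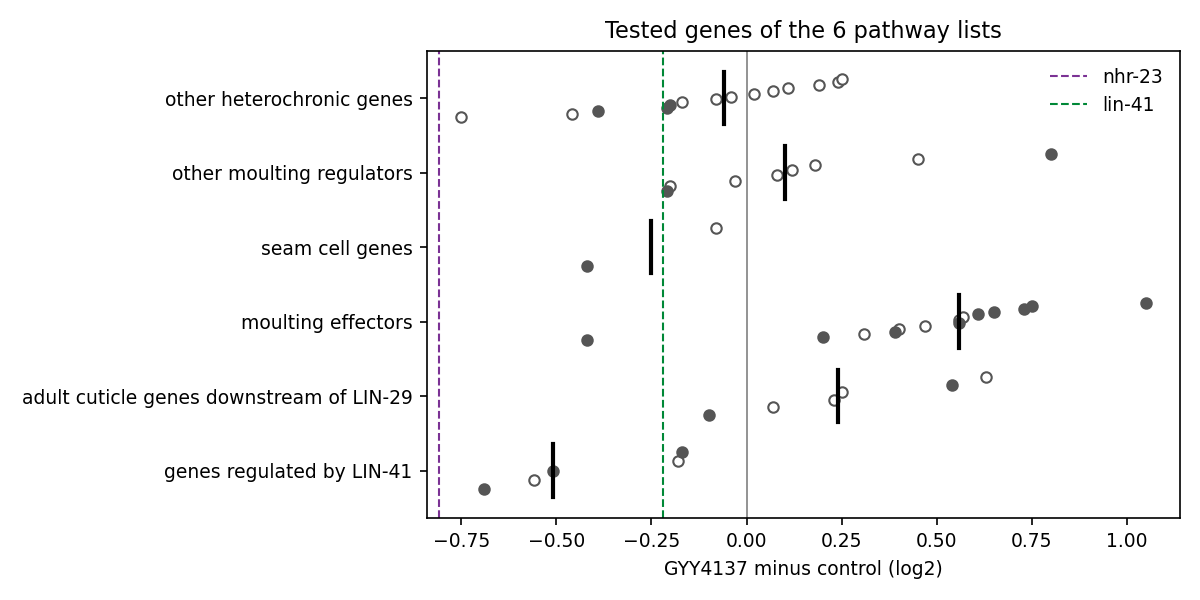
Difference GYY4137 minus control (horizontal axis, log2) of each tested gene in 6 lists of related genes, with filled circles where the groups do not overlap, open circles where they do, a vertical bar at each list's median and dashed lines at nhr-23 and lin-41. The moulting effectors lie mostly to the right of 0, with a median of 0.56, and the 5 genes regulated by LIN-41 to the left, with a median of -0.51.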

How the data were processed

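The values deposited by the authors are log2, 1 per probe set and array, made with GCRMA per the submitters' processing notes. They run from 1.88 to 13.32, and no further normalization was applied. The sources used here do not give its version or any other filter. The 77 control probe sets were left out. Probe sets were named by the platform annotation, and symbols were brought up to date with a RefSeq table (WBcel235) by gene number. Of the other 22548 probe sets, 8053 lay above 4 on 3 or more of 6 arrays and were tested with limma 3.58.1 in R 4.3.3 (lmFit, eBayes, two-sided, Benjamini-Hochberg over all). This fit was tested on simulated data. For lists, each gene was its probe set with the highest mean (6230 genes).

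The members and lists were chosen with earlier results of these data known. Named were all members, per list the called genes or otherwise the 3 with the smallest p, and the 2 genes most like a member whose values span over 1. Same-numbered arrays did not deviate together (correlations 0.108, -0.0161 and 0.0513), so the numbers are not treated as pairs. Alternatives were no filter, a floor of 6, median centring, quantile normalization, array weights, an intensity trend, a replicate block and each array left out. The number of arrays limits the precision.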

Additional observations from a re-analysis of the deposited data

How the results depend on the processing

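The count of called probe sets was 121 and moved to 33 with no filter, 80 with a floor of 6, 1389 with array weights and 73 with the replicate block, and it ran from 12 to 381 with 1 array left out. Among the members 0 were called, except 2 with array weights (nhr-23 at -0.56 and lin-41 at -0.25), where 8.48% of tested probe sets were called lower. With 1 array left out from 0 to 1 member was called. The 1 was nhr-23 at -0.63 without GYY4137 replicate 3, where 1.69% were called lower. Array weights gave that array 0.143 and GYY4137 replicate 2 a weight of 4.82. Of the 48 listed genes tested in the main fit 0 were called. With array weights 15 were, 13 raised and 2 lowered, where 9.02% of all genes were raised and 8.12% lowered. From 0 to 2 were called with 1 array left out. The replicate block, with the number as a term, left nhr-23 at -0.81 (limma adjusted p = 0.130) and changed no member's call. Blmp-1 turned to 0.02 with quantile normalization, 0.08 with array weights, and ran from -0.15 to 0.06 with 1 array left out. Lin-28 ran from -0.07 to 0.26, nhr-23 from -0.94 to -0.63, lin-42 from 0.12 to 0.30 and lin-41 from -0.26 to -0.19. The cause of these shifts was not tested. No member passed a floor of 6, so that setting gave no member values.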
